A study of Homo sapiens with 4 samples.

Results

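HMOX1, the ferritin chains and 7 further genes of heme breakdown and iron handling were followed in NCI-N87 gastric cancer cells with and without ZSCAN18. The 10 genes were chosen by name from the 60612 genes of the deposited table: HMOX1, HMOX2, BLVRA, BLVRB, FTH1, FTL, TFRC, SLC40A1, NCOA4 and IREB2. HMOX1 was already known to be among the largest increases of this same comparison when the set was put together. Values of these 10 genes are therefore given as a description, and no test is rested on them. NCI-N87 is an established line grown from a human gastric carcinoma. Its cells held PLVX-IRES-Puro with ZSCAN18, a SCAN domain zinc finger gene, in 2 libraries and PLVX-IRES-Puro without an insert in the other 2. Cells of both groups were transfected for 24 hours and then selected in puromycin for 4 days, 5 days with the vector in all. The labels do not say whether the 2 libraries of a group came from separate cultures, so the spread between them may be technical.

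Heme oxygenases open the heme ring and release iron, carbon monoxide and biliverdin, which biliverdin reductases turn into bilirubin. The freed iron is stored in ferritin, a shell of heavy (FTH1) and light (FTL) chains, or leaves the cell through ferroportin, the product of SLC40A1. Transferrin-bound iron enters by the transferrin receptor, TFRC, and the cargo receptor NCOA4 brings ferritin to lysosomes when stored iron is needed. Iron regulatory proteins, encoded by ACO1 and IREB2, bind hairpins called iron-responsive elements when iron is scarce. At the start of ferritin and ferroportin mRNAs such a hairpin holds back translation, and near the end of TFRC mRNA it protects the message from decay. HMOX1 is known as the inducible heme oxygenase, under the repressor BACH1 and the activator NRF2, and HMOX2 as the constitutive one.

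The hairpins of FTL, SLC40A1 and TFRC are shown because through them iron is known to act on the translation of ferritin and ferroportin but on the mRNA level of TFRC, and FPKM measures mRNA only. They were read from GENCODE release 29 transcripts (GRCh38) as 29-base windows, written 5′ to 3′ as DNA on the sense strand, with the 6-base loop in capitals.
FTL: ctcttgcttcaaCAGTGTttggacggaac
SLC40A1: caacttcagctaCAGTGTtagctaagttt
TFRC site 1: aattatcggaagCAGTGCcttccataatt
TFRC site 2: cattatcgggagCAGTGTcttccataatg
TFRC site 3: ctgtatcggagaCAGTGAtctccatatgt
TFRC site 4: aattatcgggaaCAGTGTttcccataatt
The FTL site lies in the 5′ UTR at chr19:48965335-48965363 on the plus strand. The SLC40A1 site lies in the 5′ UTR at chr2:189580661-189580689 on the minus strand. The 4 TFRC sites lie in the 3′ UTR on the minus strand, the outermost at chr3:196050979-196051007 and chr3:196050463-196050491. The pattern searched was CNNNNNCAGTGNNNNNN, with all 5 bases before the loop able to pair, G with T included, with the 5 bases after it. It was searched in FTL, SLC40A1 and TFRC, picked as known carriers of the hairpin, and, as a background, in all coding genes. Matches in these picked genes are therefore not a test against that background. On the sense strand of the longest coding transcript per gene the pattern occurred in 0.12% of 18314 5′ UTRs and in 0.63% of 18982 3′ UTRs, whose lengths differ. A match describes the letters and does not show binding in these cells. A hairpin with another loop or an imperfect stem would be missed, so the sites shown are matches and may not be all hairpins. Sites in FTH1 and the other genes of the set were not listed, so nothing is said on whether the pattern occurs there.

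ZSCAN18 itself had an FPKM (fragment number corrected for transcript length and for the mapped fragments in a library) of 116 and 112 in the ZSCAN18 libraries, against 0.108 and 0.144 in the empty vector libraries. The columns of the first group carry no sample title and were assigned by elimination. All 6 genes checked for epithelium were present, from an FPKM of 34.9 for CDH1 to 1656 for KRT19. They were EPCAM, KRT8, KRT18, KRT19, CDH1 and ERBB2, the last a receptor gene not limited to epithelium. The 6 summed to 3694 and 3865 in the ZSCAN18 libraries, against 4451 and 4210 in the empty vector libraries. Of these sums ERBB2 made up 453.5 and 472 in the ZSCAN18 libraries, against 525 and 549 in the empty vector libraries. The 7 erythroid markers summed to 0.406 and 0.673 in the ZSCAN18 libraries and to 0.362 and 0.484 in the empty vector libraries, with ALAS2, the heme synthesis enzyme of the red cell lineage, listed at no signal in all 4. The 8 macrophage markers summed to an FPKM of 0.857 and 0.764 in the ZSCAN18 libraries and to 0.410 and 2.96 in the empty vector libraries, with CD14 at 1.22 in the second empty vector library. The 6 fibroblast markers summed to 2.64 and 2.03 in the ZSCAN18 libraries and to 1.86 and 0.819 in the empty vector libraries, so both sums with ZSCAN18 lay above both others. The part of the epithelial and fibroblast differences in the results below was not tested. COL1A1, a fibroblast collagen, was the one fibroblast marker to reach an FPKM of 1, with 1.46 and 1.09 in the ZSCAN18 libraries. In bulk RNA, more cells with a transcript and more of it per cell cannot be told apart.

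All 10 genes passed the filter, set at an FPKM of 1 or more in 2 or more libraries, which left 11822 genes. In 7 of the 10 the groups did not overlap, beside 60.2% of all tested genes. In 6 of the 10 both ZSCAN18 libraries lay above both empty vector libraries, a pattern shown by 35.8% of all tested genes. In 1, HMOX2, both lay below, as in 24.4% of tested genes, and in 3 the groups overlapped. Two-sided limma tests on log2(FPKM + 1), adjusted by Benjamini-Hochberg over all 11822 genes, put 1.77% of tested genes under an adjusted p of 0.05. HMOX1 and FTH1 were the 2 of the 10 genes under it, both higher with ZSCAN18 (0.795% of tested genes were called higher), and since the comparison itself led to the choice of the genes nothing is read from that count. The median log2 fold change was 0.29 over the 10 genes and 0.04 over all tested genes. Neither call remained when any 1 of the 4 libraries was left out.

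**Figure D1:**
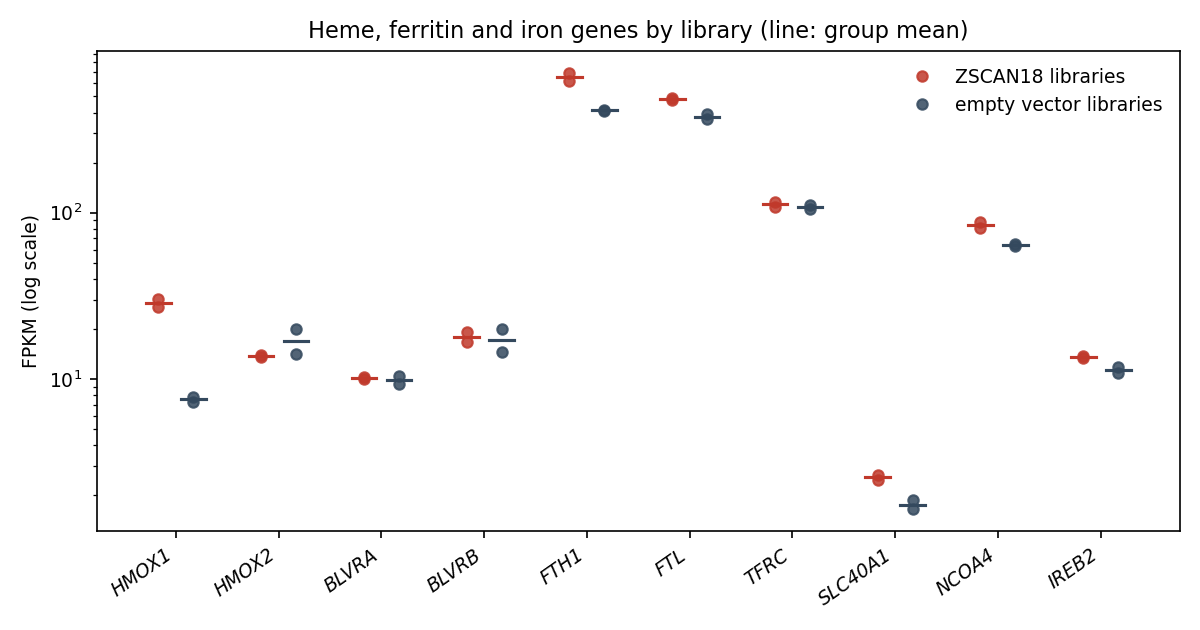
FPKM of the 10 genes on a log axis, with 1 point per library, ZSCAN18 libraries in red to the left and empty vector libraries in dark blue to the right, and a line at each group mean. HMOX1 shows the widest gap, with 27.0 and 30.1 in the ZSCAN18 libraries, against 7.26 and 7.82 in the empty vector libraries, while the points of TFRC, BLVRA and BLVRB overlap.

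HMOX1 (ENSG00000100292, chr22:35380361-35390293, plus strand), the inducible heme oxygenase, had an FPKM of 27.0 and 30.1 in the ZSCAN18 libraries, against 7.26 and 7.82 in the empty vector libraries. Both ZSCAN18 libraries lay far above both empty vector libraries, and the replicates of each group lay close together. The mean was 28.6 ± 2.19 with ZSCAN18 and 7.54 ± 0.393 with the empty vector (SD, n = 2 each), a ratio of 3.79. On log2(FPKM + 1) the fold change was 1.79 (SE 0.081), place 12 from the top among 11822 genes, and 0.14% of tested genes had a larger fold change in either direction. In the authors' deposited table, which takes the plain ratio, its log2 fold change was 1.92.

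HMOX2 (ENSG00000103415, chr16:4474690-4510346, plus strand), the constitutive heme oxygenase, had an FPKM of 14.0 and 13.5 in the ZSCAN18 libraries, against 14.2 and 19.9 in the empty vector libraries. The ZSCAN18 values lay just under the lower empty vector value, and the empty vector libraries differed from each other by more than the groups did. The log2 fold change of -0.27 (SE 0.171) was -0.04 without the second empty vector library and -0.50 without the first. HMOX2 overlaps NMRAL1 on the opposite strand; the sources used here do not say whether the counting was strand-specific. NMRAL1 had an FPKM of 3.87 and 4.28 in the ZSCAN18 libraries and of 6.08 and 4.34 in the empty vector libraries.

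The order of the 2 heme oxygenases differed between the groups. Within a library HMOX1 stood at 1.93 and 2.23 times HMOX2 in the ZSCAN18 libraries, against 0.512 and 0.393 times in the empty vector libraries. HMOX1 was thus the more abundant of the pair per length in both ZSCAN18 libraries and the less abundant in both empty vector libraries. The FPKM of both together was 41.1 and 43.6 in the ZSCAN18 libraries, against 21.4 and 27.7 in the empty vector libraries.

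For the reductases of the next step the groups overlapped. BLVRA (ENSG00000106605, chr7:43758680-43807342, plus strand), the biliverdin reductase of the adult bile pigment route, had an FPKM of 10.3 and 9.95 in the ZSCAN18 libraries, against 9.34 and 10.5 in the empty vector libraries. Its groups overlapped, and its log2 fold change of 0.03 (SE 0.077) took the other sign after median-of-ratios scaling (-0.01) and without the first empty vector library (-0.05). BLVRB (ENSG00000090013, chr19:40447765-40465764, minus strand), which acts as biliverdin and flavin reductase, had an FPKM of 19.2 and 16.8 in the ZSCAN18 libraries, against 14.4 and 19.96 in the empty vector libraries. Its groups overlapped as well, and its log2 fold change was 0.075 (SE 0.175), with -0.15 without the first and 0.30 without the second empty vector library. Together the 2 reductases had an FPKM of 29.4 and 26.8 in the ZSCAN18 libraries and of 23.8 and 30.4 in the empty vector libraries. With 2 libraries per group these values do not show that the reductases were equal.

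**Figure D2:**
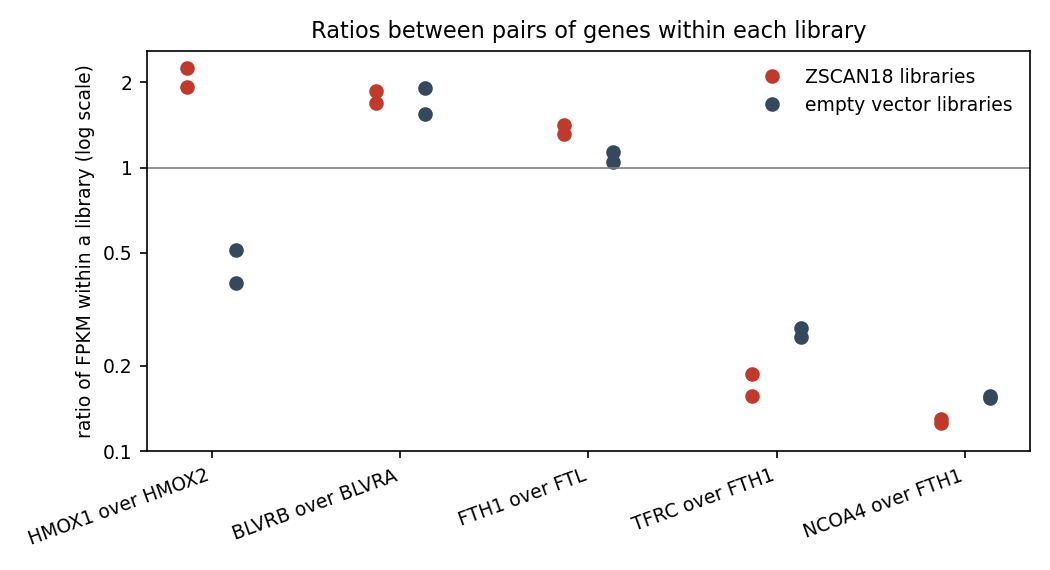
Ratio of FPKM between pairs of genes within each library, on a log axis, with ZSCAN18 libraries in red to the left and empty vector libraries in dark blue to the right, and a line at equal levels. HMOX1 over HMOX2 lies above the line in both ZSCAN18 libraries (1.93 and 2.23) and below it in both empty vector libraries (0.512 and 0.393), and BLVRB over BLVRA overlaps between the groups.

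For both ferritin chains the ZSCAN18 libraries lay above the empty vector libraries. FTH1 but not FTL was under the adjusted threshold, with adjusted p-values of 0.0416 and 0.0682 in limma. Both lay near the threshold, so the calls do not set the 2 chains apart. Without the variance trend the adjusted p of FTH1 in limma was 0.0671. FTH1 (ENSG00000167996, chr11:61959718-61967634, minus strand), the heavy chain with the ferroxidase activity, had an FPKM of 621 and 695 in the ZSCAN18 libraries, against 414 and 410 in the empty vector libraries. The groups were well apart, and the ZSCAN18 libraries differed more from each other than the empty vector libraries did. Its mean was 658 ± 52.5 with ZSCAN18 and 412 ± 2.87 with the empty vector (SD, n = 2 each), and the log2 fold change was 0.67 (SE 0.069). Of all tested genes 4.09% had a larger fold change in either direction. In the authors' deposited table FTH1 had a q-value of 0.0113 but no mark of significance, since every marked gene there had a p-value under 0.05 and a log2 fold change of at least 1 in either direction. HMOX1 was the 1 of the 10 genes with that mark.

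FTL (ENSG00000087086, chr19:48965309-48966879, plus strand), the light chain that aids the growth of the iron core, had an FPKM of 475 and 491 in the ZSCAN18 libraries, against 365.5 and 391 in the empty vector libraries. The groups did not overlap, and the log2 fold change was 0.35 (SE 0.054). The heavy chain stood at 1.31 and 1.42 times the light chain in the ZSCAN18 libraries, against 1.13 and 1.05 times in the empty vector libraries. FTH1 and FTL together held 0.374 and 0.401% of all FPKM in the ZSCAN18 libraries, against 0.250 and 0.264% in the empty vector libraries.

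**Figure D3:**
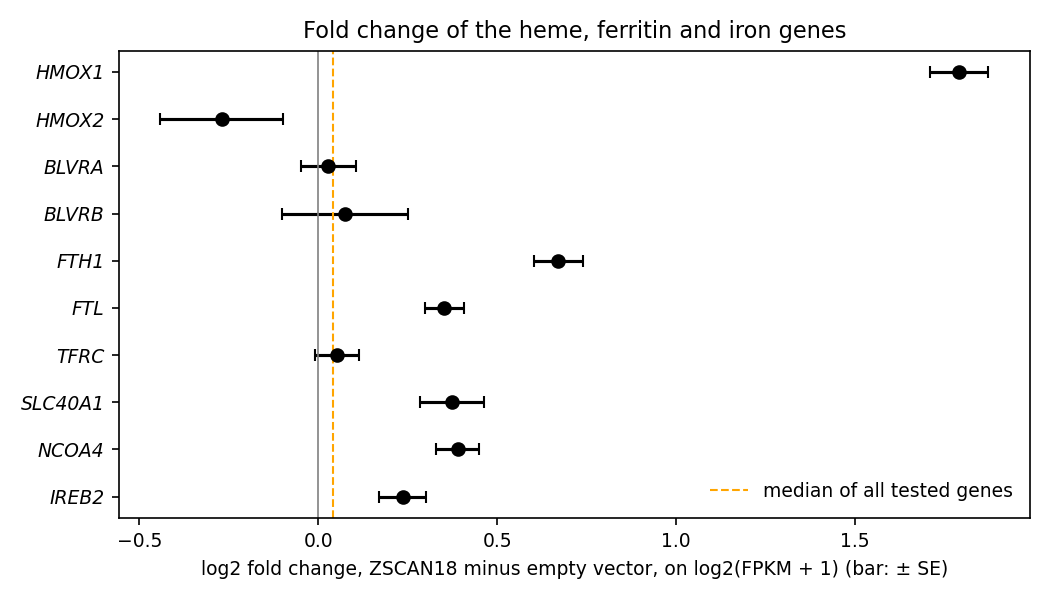
Log2 fold change of each gene, ZSCAN18 minus empty vector, on log2(FPKM + 1), with bars of 1 SE from limma and a dashed line at the median of all tested genes. HMOX1 stands at 1.79 and FTH1 at 0.67, HMOX2 lies below 0, and BLVRA, BLVRB and TFRC lie within 1 SE of 0.04, the median of all tested genes.

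Ferritin genes have many processed pseudogenes, intronless copies of their mRNA, and the sources used here do not say how the authors placed reads that match several copies. The table held 24 rows named as FTH1 pseudogenes, of which 11 were at no signal in all libraries and 8 reached an FPKM of 1 in any library. Summed over the 24 rows, their FPKM came to 9.58 and 10.1% of that of FTH1 in the ZSCAN18 libraries, against 9.26 and 10.2% in the empty vector libraries. The ranges of that share overlapped between the groups. FTH1P8 had an FPKM of 17.8 and 19.95 in the ZSCAN18 libraries, against 12.6 and 13.1 in the empty vector libraries. FTH1P7 had 11.75 and 16.7 in the ZSCAN18 libraries, against 7.96 and 10.4 in the empty vector libraries. FTH1P2 had 12.4 and 15.0 in the ZSCAN18 libraries, against 6.86 and 8.47 in the empty vector libraries. In all 8 of these rows both ZSCAN18 libraries lay above both empty vector libraries, a pattern shown by 35.8% of all tested genes. In limma 0 of the 8 passed the adjusted threshold, against 1.77% of all tested genes. At an unadjusted p under 0.05 in limma there were 5 of the 8, against 26.8% of all tested genes. Rows that may share reads with FTH1 and with each other are not 8 separate observations. How far reads of FTH1 lie on these rows was not tested, and they are not counted as further genes. Of 16 FTL pseudogene rows 14 were at no signal, and all 16 together held at most 0.254% of the FPKM of FTL in any library. FTLP3, the one that reached an FPKM of 1, had 0.841 and 1.14 in the ZSCAN18 libraries, against 0.241 and 0.568 in the empty vector libraries. FTH1 also overlaps BEST1 on the opposite strand, whose FPKM was 2.001 and 2.326 in the ZSCAN18 libraries, against 1.501 and 0.485 in the empty vector libraries.

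**Figure D4:**
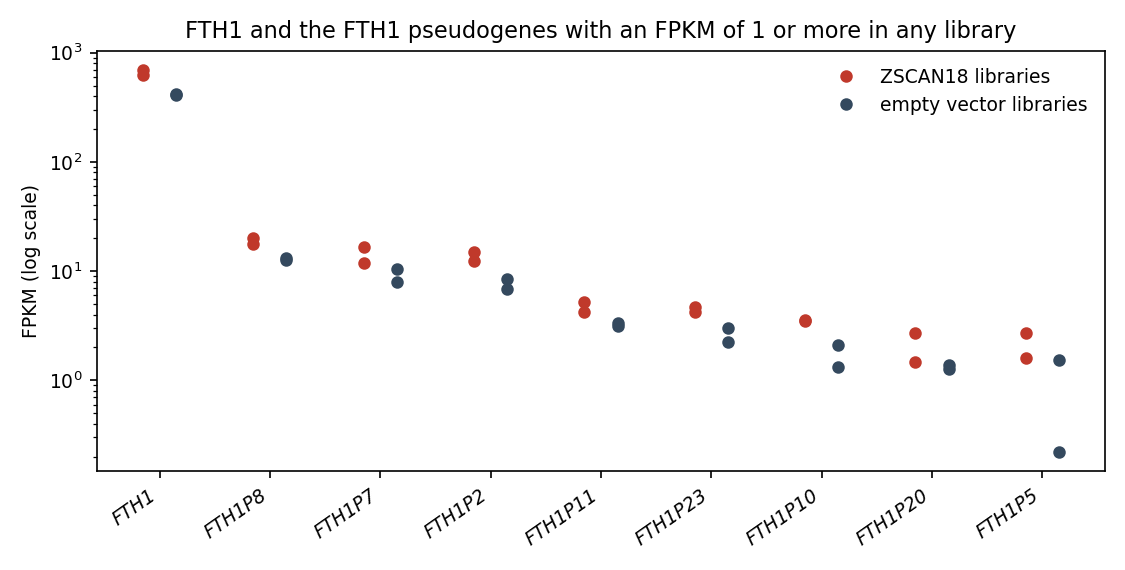
FPKM of FTH1 and of the 8 FTH1 pseudogenes that reached an FPKM of 1 in any library, on a log axis, with ZSCAN18 libraries in red to the left and empty vector libraries in dark blue to the right. FTH1 stands at 410 or more in all 4 libraries and the highest pseudogene value is 19.95. In each pseudogene both ZSCAN18 points lie above both empty vector points, a pattern shown by 35.8% of all tested genes.

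TFRC (ENSG00000072274, chr3:196027183-196082096, minus strand), the receptor that takes up transferrin-bound iron, had an FPKM of 116 and 109 in the ZSCAN18 libraries, against 105 and 112 in the empty vector libraries. The groups overlapped, and the log2 fold change was 0.05 (SE 0.061). The 4 sites that the pattern matched in TFRC, shown above, lie in its 3′ UTR. TFRC stood at 0.187 and 0.157 times FTH1 in the ZSCAN18 libraries, against 0.253 and 0.273 times in the empty vector libraries. With TFRC itself overlapping between the groups, this ratio mostly restates the higher FTH1 and is not a separate result.

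SLC40A1 (ENSG00000138449, chr2:189560590-189583758, minus strand), the iron exporter ferroportin, was the least abundant of the 10 genes in both groups. Its level was an FPKM of 2.66 and 2.48 in the ZSCAN18 libraries, against 1.87 and 1.65 in the empty vector libraries. The groups did not overlap, and the log2 fold change was 0.37 (SE 0.089), which the pseudocount holds down at this level and which was 0.52 with a pseudocount of 0.1. NCOA4 (ENSG00000266412, chr10:46005088-46030714, minus strand), the receptor that takes ferritin to lysosomes, had an FPKM of 80.7 and 87.7 in the ZSCAN18 libraries, against 64.8 and 63.1 in the empty vector libraries. The groups did not overlap, and the log2 fold change was 0.39 (SE 0.060). Relative to FTH1, NCOA4 stood at 0.130 and 0.126 in the ZSCAN18 libraries, against 0.157 and 0.154 in the empty vector libraries. NCOA4 itself was higher with ZSCAN18, so the lower ratio restates the larger log2 fold change of FTH1 (0.67). The level of NCOA4 was not under the adjusted threshold (limma adjusted p = 0.0684). IREB2 (ENSG00000136381, chr15:78437431-78498209, plus strand), the iron regulatory protein degraded when iron is plentiful, had an FPKM of 13.8 and 13.4 in the ZSCAN18 libraries, against 10.9 and 11.8 in the empty vector libraries. The groups did not overlap, and the log2 fold change was 0.24 (SE 0.066).

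Per length, the levels of the 10 genes ran in the same order in both groups for the first 4, FTH1, FTL, TFRC and NCOA4, and SLC40A1 came last in both. HMOX1 took place 5 in the ZSCAN18 group and place 9 in the empty vector group. With ZSCAN18 the order after it was BLVRB, HMOX2, IREB2 and BLVRA, and the ranges of HMOX2 and IREB2 overlapped. With the empty vector the order after NCOA4 was BLVRB, HMOX2, IREB2, BLVRA and HMOX1, and the ranges of BLVRB and HMOX2 overlapped. All other neighbours in either order had ranges that did not overlap.

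The 5 tested genes with a symbol whose centred log2(FPKM + 1) profile over the 4 libraries lay closest to that of HMOX1 were IDS, SNORD16, HMGCS1, ZBTB38 and SCD, at Euclidean distances of 0.05, 0.07, 0.18, 0.18 and 0.18. IDS, a lysosomal sulfatase, had an FPKM of 23.8 and 25.2 in the ZSCAN18 libraries and of 6.11 and 6.54 in the empty vector libraries. HMGCS1, an enzyme of sterol synthesis, had an FPKM of 115 and 111.5 in the ZSCAN18 libraries, against 28.1 and 32.2 in the empty vector libraries. SCD, a fatty acid desaturase, had 446 and 426 in the ZSCAN18 libraries, against 132 and 130.5 in the empty vector libraries. ZBTB38, a zinc finger reader of DNA methylation, had 4.27 and 4.14 in the ZSCAN18 libraries, against 0.476 and 0.414 in the empty vector libraries. SNORD16, a small nucleolar RNA, had 2.28 and 2.74 in the ZSCAN18 libraries, against 0.0222 and 0.0225 in the empty vector libraries. Their ratios of means were 9.45 and 112, against 3.79 for HMOX1, and the pseudocount holds down the fold change at such low levels. These profiles share the 4 libraries and the 2 groups. The distance thus mostly measures a similar size of group difference on log2(FPKM + 1), not a similar plain ratio.

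Outside the 10 genes, 87 genes of the same pathways were read in 6 lists, of which 74 passed the filter. Of these 74, 1 rose and 0 fell at an adjusted p under 0.05 in limma, against 0.795% of all tested genes that rose and 0.973% that fell; 17 of the 74, or 23.0%, had an unadjusted p under 0.05 in limma, against 3174 of all 11822 tested genes, or 26.8%. The counts at an unadjusted p in each list below stand against that share of 26.8%. Their median log2 fold change was 0.006, against 0.04 over all tested genes.

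The gene that rose was MAFF, from the 9 known regulators of HMOX1. MAFF, a small MAF protein that pairs with NRF2 or BACH1 on DNA, had an FPKM of 4.83 and 4.48 in the ZSCAN18 libraries, against 2.52 and 2.54 in the empty vector libraries (log2 fold change 0.68, SE 0.075, limma adjusted p = 0.0476). That adjusted p was 0.0532 with a filter at an FPKM of 0.5, 0.0543 without the variance trend and 0.1704 to 0.2166 when 1 library was left out, and it ran from 0.0455 to 0.2166 over the 12 alternatives. BACH1, the heme-sensing repressor, had an FPKM of 2.18 and 2.17 in the ZSCAN18 libraries and of 1.37 and 1.63 in the empty vector libraries (log2 fold change 0.34, limma adjusted p = 0.130). NFE2L2, which encodes NRF2, was at 18.6 and 18.4 in the ZSCAN18 libraries and at 17.2 and 19.9 in the empty vector libraries, so its groups overlapped. It was named for its role, after its values were seen. The log2 fold changes of HIF1A, a hypoxia factor, and of MAFG and MAFK, the other small MAF proteins listed, were 0.12, 0.19 and -0.31. For MAFG and MAFK the groups overlapped, with SEs of 0.156 and 0.447. The median of the list was 0.04.

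In heme synthesis 8 of 10 genes were tested, 0 passed, and 2 had an unadjusted p under 0.05 in limma. CPOX, the coproporphyrinogen oxidase, had an FPKM of 19.0 and 18.3 in the ZSCAN18 libraries and of 22.4 and 22.6 in the empty vector libraries (log2 fold change -0.26, limma adjusted p = 0.0886). ALAD, an early enzyme of the pathway, and TMEM14C, a porphyrin carrier of mitochondria, had log2 fold changes of 0.22 and -0.43, and the median was -0.07. The ZSCAN18 libraries differed widely for TMEM14C (SE 0.192), at 24.3 and 16.6, against 28.0 and 27.0 in the empty vector libraries. ALAS1, the rate-limiting enzyme outside the red cell lineage and named after its values were seen, was at 31.5 and 30.6 in the ZSCAN18 libraries and at 32.0 and 31.2 in the empty vector libraries. In heme transport and electron supply 9 of 12 genes were tested, 0 passed, and 1 had an unadjusted p under 0.05 in limma. HEBP2, a heme-binding protein, had a log2 fold change of -0.19, FLVCR1, a carrier first described as a heme exporter, one of 0.25, ABCB6, a porphyrin transporter, one of -0.28, and POR, the reductase that feeds electrons to heme oxygenases, one of -0.17. The median was -0.06, over a range of -0.28 to 0.62. The upper end, PGRMC2, is named only as such. Its groups overlapped (SE 0.55), with an FPKM of 6.02 and 19.6 in the empty vector libraries.

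Of 21 genes of iron uptake and movement across membranes 14 were tested, 0 passed, and 6 had an unadjusted p under 0.05 in limma. HEPHL1, a copper ferroxidase related to hephaestin, had an FPKM of 3.85 and 3.58 in the ZSCAN18 libraries and of 6.15 and 5.88 in the empty vector libraries (log2 fold change -0.57, SE 0.073, limma adjusted p = 0.0563). It passed, with adjusted p-values of 0.0482 and 0.0478 in limma, after median-of-ratios scaling and after quantile normalization. STEAP1, of a family of metalloreductases, was at 8.485 and 7.94 in the ZSCAN18 libraries and at 11.1 and 11.05 in the empty vector libraries (log2 fold change -0.39, limma adjusted p = 0.0701). The metal carriers SLC39A8 and SLC39A14, which both can carry iron, had log2 fold changes of opposite sign. SLC39A8 was at 11.0 and 10.3 in the ZSCAN18 libraries and at 13.8 and 14.2 in the empty vector libraries (limma adjusted p = 0.0727). SLC39A14 was at 14.3 and 13.5 in the ZSCAN18 libraries and at 11.0 and 11.1 in the empty vector libraries (limma adjusted p = 0.0837). The median of the list was -0.03, over a range of -0.80 to 0.44. The lower end, STEAP2, is named only as such. Its groups overlapped (SE 0.559), with an FPKM of 0.684 and 3.82 in the ZSCAN18 libraries.

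Of 10 genes of iron sensing and ferritin handling 9 were tested, 0 passed, and 1 had an unadjusted p under 0.05 in limma. That gene was TAX1BP1, an autophagy receptor that acts with NCOA4 on ferritin, at an FPKM of 10.3 and 9.26 in the ZSCAN18 libraries and of 6.81 and 6.72 in the empty vector libraries (log2 fold change 0.47, limma adjusted p = 0.0701). ACO1, the other iron regulatory protein, had a log2 fold change of 0.14, HERC2, a ubiquitin ligase that acts on NCOA4, one of 0.13, and PCBP1, an iron chaperone for ferritin, one of -0.05. The median was 0.04. All 25 genes of iron-sulfur cluster assembly were tested, 0 passed, 5 had an unadjusted p under 0.05 in limma, and the median was 0.02. HSCB, a co-chaperone of cluster transfer, had a log2 fold change of 0.43. BOLA3, a late-acting assembly factor, had one of -0.36, and FDXR, the ferredoxin reductase, one of -0.21.

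**Figure D5:**
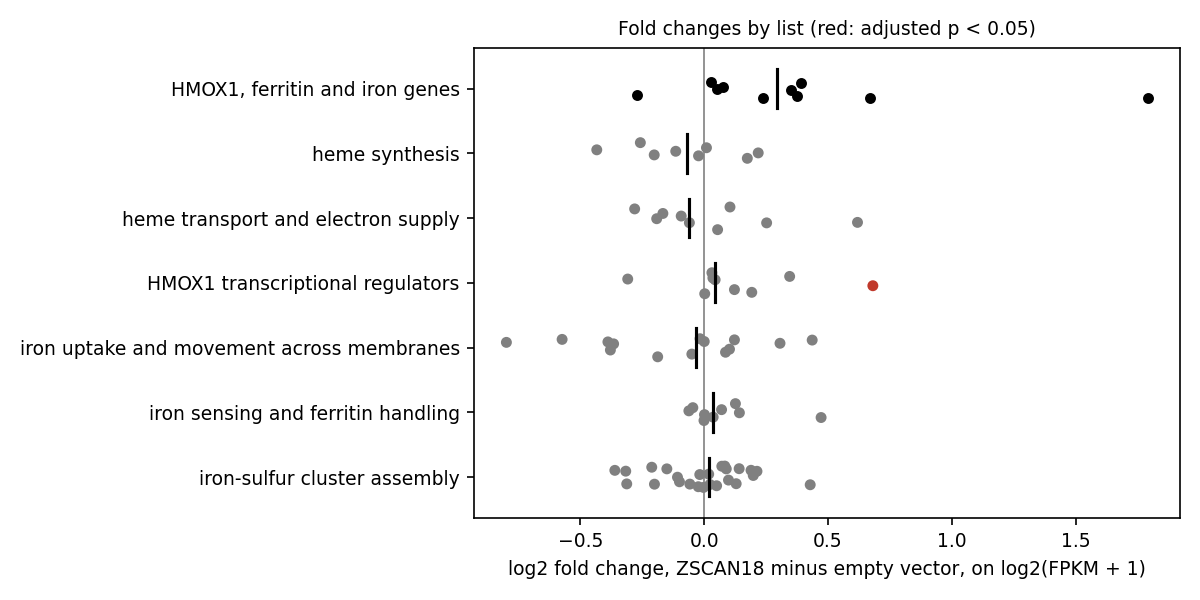
Log2 fold change on log2(FPKM + 1), ZSCAN18 minus empty vector, of the 10 genes in black and of the tested genes of 6 related lists below, with a line at each median. The 1 red point is MAFF at 0.68, the related gene under an adjusted p of 0.05, and the medians of the 6 related lists lie between -0.07 and 0.04.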

How the data were processed

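The data are 1 table for 4 libraries of total RNA. The authors computed and deposited an FPKM per library, and for the comparison a ratio (fold change), a log2 fold change and p-value and q-value columns. The submitters' processing notes list, with no roles, HISAT2 2.0.4 and StringTie 1.3.4d, cutadapt 1.9 and FastQC 0.10.1, and DESeq2 and edgeR 3.2.5. No signal is written as 0.0001 in the deposited FPKM columns. The deposited log2 value is that of the ratio of summed FPKM (0 genes differed by more than 0.001). Neither the authors' model nor the genome build is named in the sources used here. In all, 58394 identifiers were found in GENCODE release 29 (GRCh38), 99.67% of them starting within 100 kb of the place there, and coordinates are printed as GRCh38. At best 26.5 to 28.8% of low FPKM of single-exon genes lay within 0.02 of a whole number of fragments, so counts could not be recovered, depth is unknown and no count model was used.

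The 11822 genes that reached an FPKM of 1 in 2 or more libraries were fitted as log2(FPKM + 1) by limma 3.58.1 (R 4.3.3), with a group term and an intensity trend; residual degrees of freedom were 2 and prior ones 2.01. Tests were two-sided, with Benjamini-Hochberg adjustment across these genes. With 2 libraries per group, no exact permutation p lies under 0.333. The script was tested on simulated data. The members, the lists, the tests and the rule for named genes were chosen with earlier results of these data known. The rule takes ZSCAN18, the 10 genes, every related gene past the threshold and up to 4 more per list by smallest p, the 5 profiles nearest to HMOX1, and up to 3 expressed pseudogenes per parent. Clone names were left out of the nearest profiles, and some genes that the rule names are not reported here. Alternatives were other pseudocounts, filters and scalings, no trend, the column number as a block, and each library left out.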

Additional observations from a re-analysis of the deposited data

How the results depend on the processing

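In limma, 209 genes passed as reported, 1 without a filter on low values, 99 without the variance trend, 1 with the replicate number as a block, and 0 to 1 with 1 library left out: 0 without either ZSCAN18 library (limma p under 0.05 before adjustment for 2106 and 2338 genes) and 1 without either empty vector library. After median-of-ratios scaling 93 genes passed as higher and 187 as lower, while 94 and 115 did so without it; the scaling moved the median of all genes by less than 0.1 on the log2 scale. Of the 10 genes, 2 passed as reported, 0 without a filter, 1 without the trend, 0 with the replicate block and 0 in each fit with 1 library left out; their number at an unadjusted p under 0.05 in limma was 6 in the first 4 of these and 4 to 6 in the last. The share of all tested genes at that level was 26.8% as reported, 14.0% without a filter, 26.4% without the trend, 22.2% with the block and 17.8 to 20.2% with 1 library left out. Of the related genes, 1 passed as reported, 0 without a filter, 0 with the filter at 0.5, 0 without the trend, 0 with the replicate block and 0 in each fit with 1 library left out, with 12 to 17 below 0.05 before adjustment, and 2 passed after median-of-ratios scaling and 2 after quantile normalization, HEPHL1 being the second. Fewer libraries or more tested genes come with some of these settings by construction; for the others the cause was not tested. The log2 fold change of HMOX1 was 1.91 with a pseudocount of 0.1 and 1.72 to 1.87 with 1 library left out, and its adjusted p in limma ran from 0.0181 to 0.181 over 12 alternatives. That of FTH1 ran from 0.59 to 0.78 on the log2 scale, with adjusted p-values of 0.0181 to 0.183 in limma. HMOX1, HMOX2, FTH1, FTL, TFRC, SLC40A1, NCOA4 and IREB2 had the same sign in all 12 alternatives, BLVRA changed sign in 3 and BLVRB in 2. The numbers 1 and 2 do not pair the libraries by any label, and the differences between replicates of the groups correlated at 0.034 across genes, so the block removes a degree of freedom without a stated pairing.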
